A study of Mus musculus with 4 samples.

Results

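The mitosis and cytokinesis genes analysed here were 57 genes whose products carry a cell from the end of G2 through chromosome segregation to the separation of the daughter cells. They were taken by gene symbol from a list of names that was drawn up with earlier results of these data known, and each of the 57 was found exactly once among 24320 named genes of the total RNA tables and 24438 of the polyA tables. By role they comprised 6 cyclin, Cdk1 and Cdc25 genes, 4 genes of anaphase onset and chromatid separation, 8 mitotic kinase and passenger complex genes, 4 spindle checkpoint genes, 7 kinetochore genes, 11 spindle and kinesin genes, 7 genes of chromosome structure, 7 cytokinesis genes, 2 transcription factor genes and Prr11.

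The RNA came from C2C12, an established mouse myoblast line that leaves the cell cycle and fuses into myotubes when serum is lowered. Total RNA depleted of rRNA was sequenced from proliferating myoblasts (MB, labelled DM -24 h) and from myotubes (MT, 72 h in differentiation medium, DM). PolyA RNA was sequenced from cells transfected with an siRNA against hnRNPL (si-hnRNPL) or a negative control siRNA (si-NC) and kept in DM for 48 h. The study followed enhancer RNAs that bind hnRNPL, an RNA-binding protein, during this differentiation, so the first pair of libraries shows the genes before and after differentiation and the second shows them with and without the siRNA. All 4 libraries are of the same line, with 1 library per condition, so no p-value can be given and each difference rests on a pair of libraries. The values are FPKM, fragments scaled by transcript length and by the mapped fragments of the library, and each comes with a 95% interval that covers the error of counting and assigning fragments within that library only. The widths of these intervals imply 187 to 60104 fragments per member in total RNA and 170 to 11148 in polyA RNA, where si-hnRNPL was the shallower library (median 813 per member, against 1623 in si-NC). Muscle identity was checked by markers. The summed FPKM of 21 muscle differentiation genes was 32.7 in MB, 4259 in MT, 5698 in si-NC and 8442 in si-hnRNPL. Of 12 markers of immune, endothelial, epithelial, fat and neural cells, 9 were below 1 FPKM in MB and 10 in each of the other libraries, with summed values of 74.2, 14.2, 53.3 and 41.5 in the same order. Adgre1, which marks macrophages, was at 0 in all 4 libraries, and Krt14 and Tubb3 were the markers above 1 FPKM in all of them. Between MB and MT these moved in the direction of the mitosis genes, Krt14 from 16.5 to 1.91 FPKM and Tubb3 from 56.4 to 11.4. Tubb3 was also lower in si-hnRNPL than in si-NC, at 39.3 and 50.7 FPKM (-0.36), and Krt14 was at 1.60 and 1.55. Their part in the results was not tested.

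Mitosis is driven by Cdk1 bound to cyclin B, with Polo-like and Aurora kinases building the spindle and the anaphase-promoting complex ending the process by destroying securin and cyclin B. Most of the genes are transcribed in G2 and mitosis through promoters that hold a cell cycle genes homology region (CHR) beside CCAAT boxes bound by NF-Y. The MuvB core complex binds the CHR, with B-Myb (Mybl2) and Foxm1 in cycling cells and with p130 and E2F4 as the DREAM repressor in resting cells. Myoblasts that differentiate leave the cycle for good, and p21 (Cdkn1a) and the retinoblastoma family hold them there.

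To see what the member promoters share, RefSeq promoter sequences of the GRCm38.p6 build, which run from 250 bases before to 50 after the transcription start, were searched on both strands. They were matched by symbol to 49 of the 57 members, and those not matched were Ccna2, Cdc25c, Aurkb, Incenp, Tpx2, Kif20a, Smc4 and Foxm1. The CHR, searched as TTTGAA, was in 33 of 49 member promoters (67.3%) and in 18.1% of the promoters of all 27025 genes. The NF-Y box, searched as CCAAT, was in 34 (69.4%) against 37.9% of all genes. Both stood together in 28 member promoters (57.1%) and in 7.12% of all. The CHR variant TTTAAA was in 9 members (18.4%, against 13.2% of all), and an E2F site, searched as TTTCGCGC or TTTGGCGC, in 4 (8.16%, against 0.833%). The 4 with the E2F letters were Cdk1, Kif15, Kif18a and Ncapd2. Within 50 bases of the start, a window chosen after the positions were seen, the CHR was in 29 members (59.2%) and in 4.92% of all genes. The last base of a CHR and the first of a reverse NF-Y box can overlap, as in Cdca8. In 8 member promoters these windows held none of the letters, namely those of Mad2l1, Nuf2, Ncaph, Pttg1, Melk, Mybl2, Nusap1 and Tacc3.

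**Figure D1:**
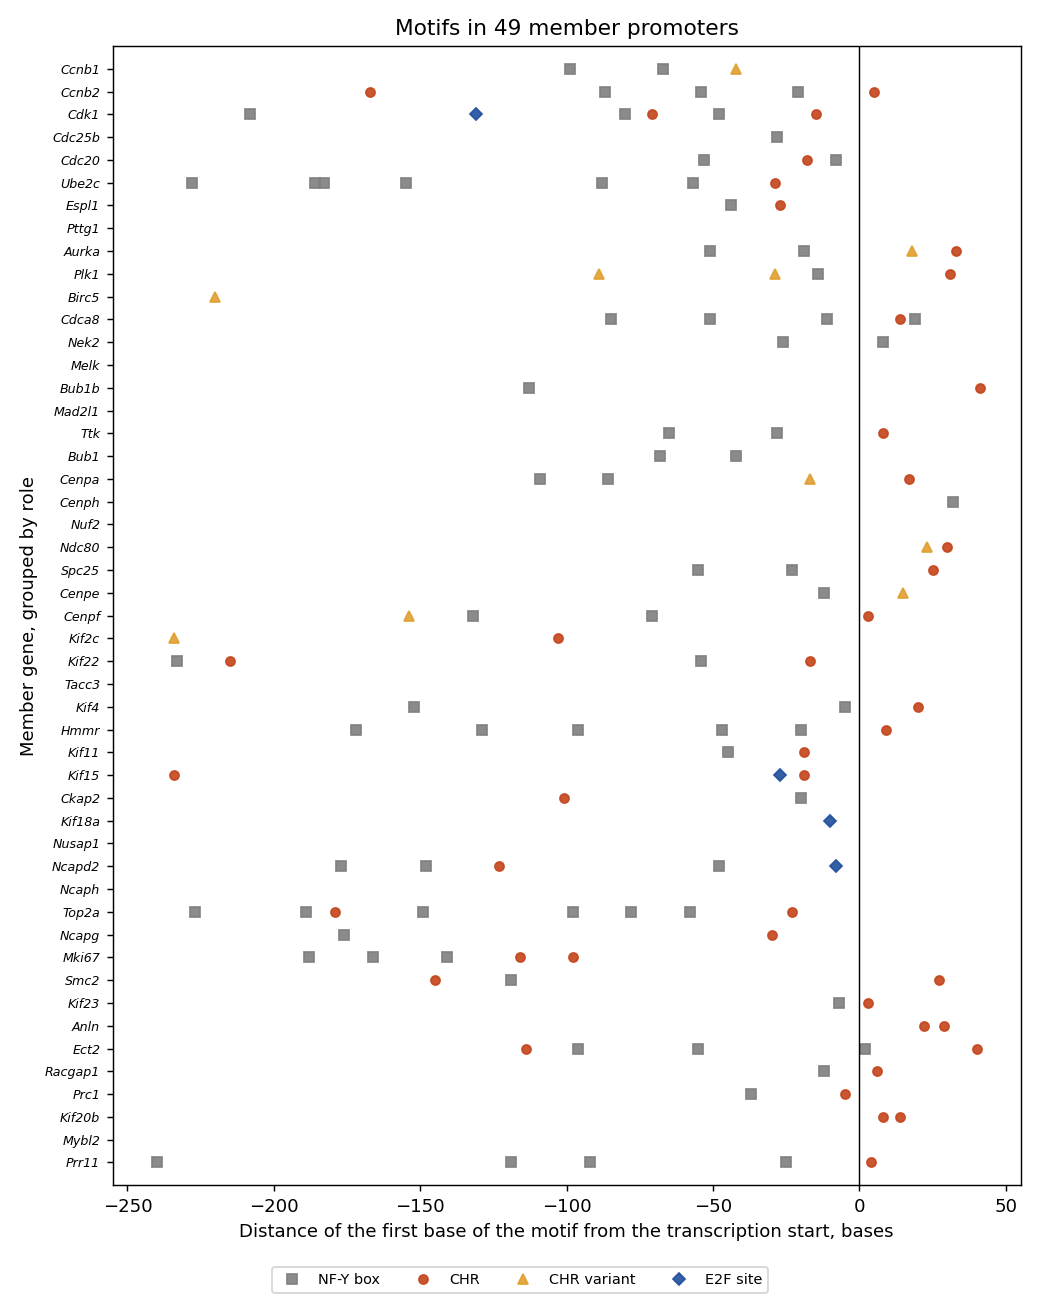
Position of each motif match in the 49 member promoters, as the distance in bases of its first base from the transcription start, which the vertical line marks. Symbols stand for the 4 motifs and genes are grouped by role; the CHR matches gather near the start, with 29 members holding a match within 50 bases of it, and the NF-Y boxes lie mostly before it.

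The stretches from 100 bases before to 50 after the start are shown for 7 members on which the results below turn, 5′ to 3′ on the strand of the gene, with matches to any of the 4 motifs on either strand in capitals. Aurka had the largest fall from MB to MT on the log2 scale, Plk1 and Cdc20 fell nearly as much, and Ccnb2 fell in MT while differing little between the siRNA libraries. Kif11 and Top2a passed the fold threshold under the siRNA, and Mybl2 has none of the letters searched. Other spellings of the motifs were not searched.
Aurka: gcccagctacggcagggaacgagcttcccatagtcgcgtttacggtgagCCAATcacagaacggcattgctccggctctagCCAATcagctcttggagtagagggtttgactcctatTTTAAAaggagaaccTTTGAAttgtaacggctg
Plk1: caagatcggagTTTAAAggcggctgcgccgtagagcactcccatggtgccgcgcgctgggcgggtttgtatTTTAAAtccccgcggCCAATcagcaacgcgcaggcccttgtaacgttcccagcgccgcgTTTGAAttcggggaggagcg
Cdc20: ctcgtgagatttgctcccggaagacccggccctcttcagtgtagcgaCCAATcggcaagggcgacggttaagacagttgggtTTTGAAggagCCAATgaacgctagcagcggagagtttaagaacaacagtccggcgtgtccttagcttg
Ccnb2: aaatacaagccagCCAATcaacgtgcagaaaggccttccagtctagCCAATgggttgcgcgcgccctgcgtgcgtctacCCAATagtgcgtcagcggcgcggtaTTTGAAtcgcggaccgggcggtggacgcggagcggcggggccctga
Kif11: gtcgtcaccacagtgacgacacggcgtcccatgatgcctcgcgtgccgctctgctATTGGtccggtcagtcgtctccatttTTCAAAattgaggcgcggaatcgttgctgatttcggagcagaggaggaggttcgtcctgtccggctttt
Top2a: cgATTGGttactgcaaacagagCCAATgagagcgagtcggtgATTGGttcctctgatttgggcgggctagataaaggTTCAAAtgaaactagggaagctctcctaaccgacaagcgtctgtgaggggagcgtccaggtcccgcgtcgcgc
Mybl2: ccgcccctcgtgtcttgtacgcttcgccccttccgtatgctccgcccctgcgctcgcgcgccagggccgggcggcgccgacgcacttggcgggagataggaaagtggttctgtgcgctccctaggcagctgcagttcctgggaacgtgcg
In the order shown these lie at chr2:172370521-172370670 (minus strand), chr7:122159335-122159484 (plus strand), chr4:118437294-118437443 (minus strand), chr9:70421505-70421654 (minus strand), chr19:37376282-37376431 (plus strand), chr11:99024140-99024289 (minus strand) and chr2:163054535-163054684 (plus strand) of GRCm38.p6. The Cdc20 stretch holds a CHR at -18 between NF-Y boxes at -53 and -8, that of Kif11 a CHR at -19 after an NF-Y box at -45, and that of Top2a a CHR at -23 after NF-Y boxes at -98, -78 and -58. In Ccnb2 the NF-Y boxes are at -87, -54 and -21 and the CHR at 5 bases into the transcript, so the same arrangement lies further downstream. A match is a description of the letters and not evidence of binding.

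In MT every member was expressed at a lower level than in MB. FPKM ranged from 12.4 to 143 (median 42.1) in MB and from 0.995 to 29.2 (median 6.27) in MT, and the median member kept 15.5% of its MB level. The change was the log2 of the ratio of FPKM + 1 in MT to that in MB, and it was called at 0.58 or more in size. By this measure 57 of 57 members were lower and 0 higher, against 18.5% of 18325 named genes that were lower and 10.6% that were higher. Of the 10744 genes that reached 1 FPKM in both libraries 28.9% were lower. The median log2 change of the members was -2.58 (quartiles -2.83 and -2.28), and that of the genes reaching 1 FPKM was -0.23. Relative to that shift the members' median was -2.35, and their changes ran from -3.21 to -1.05. The 95% intervals of the FPKM did not overlap between MB and MT for any of the 57. Overlap was not counted over all genes, so by itself it does not set the members apart. Of the 56 members at 1 FPKM or more in both libraries, 52 lay below the 5th percentile of all such genes. In bulk RNA fewer dividing cells and less of these mRNAs per cell cannot be told apart.

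**Figure D2:**
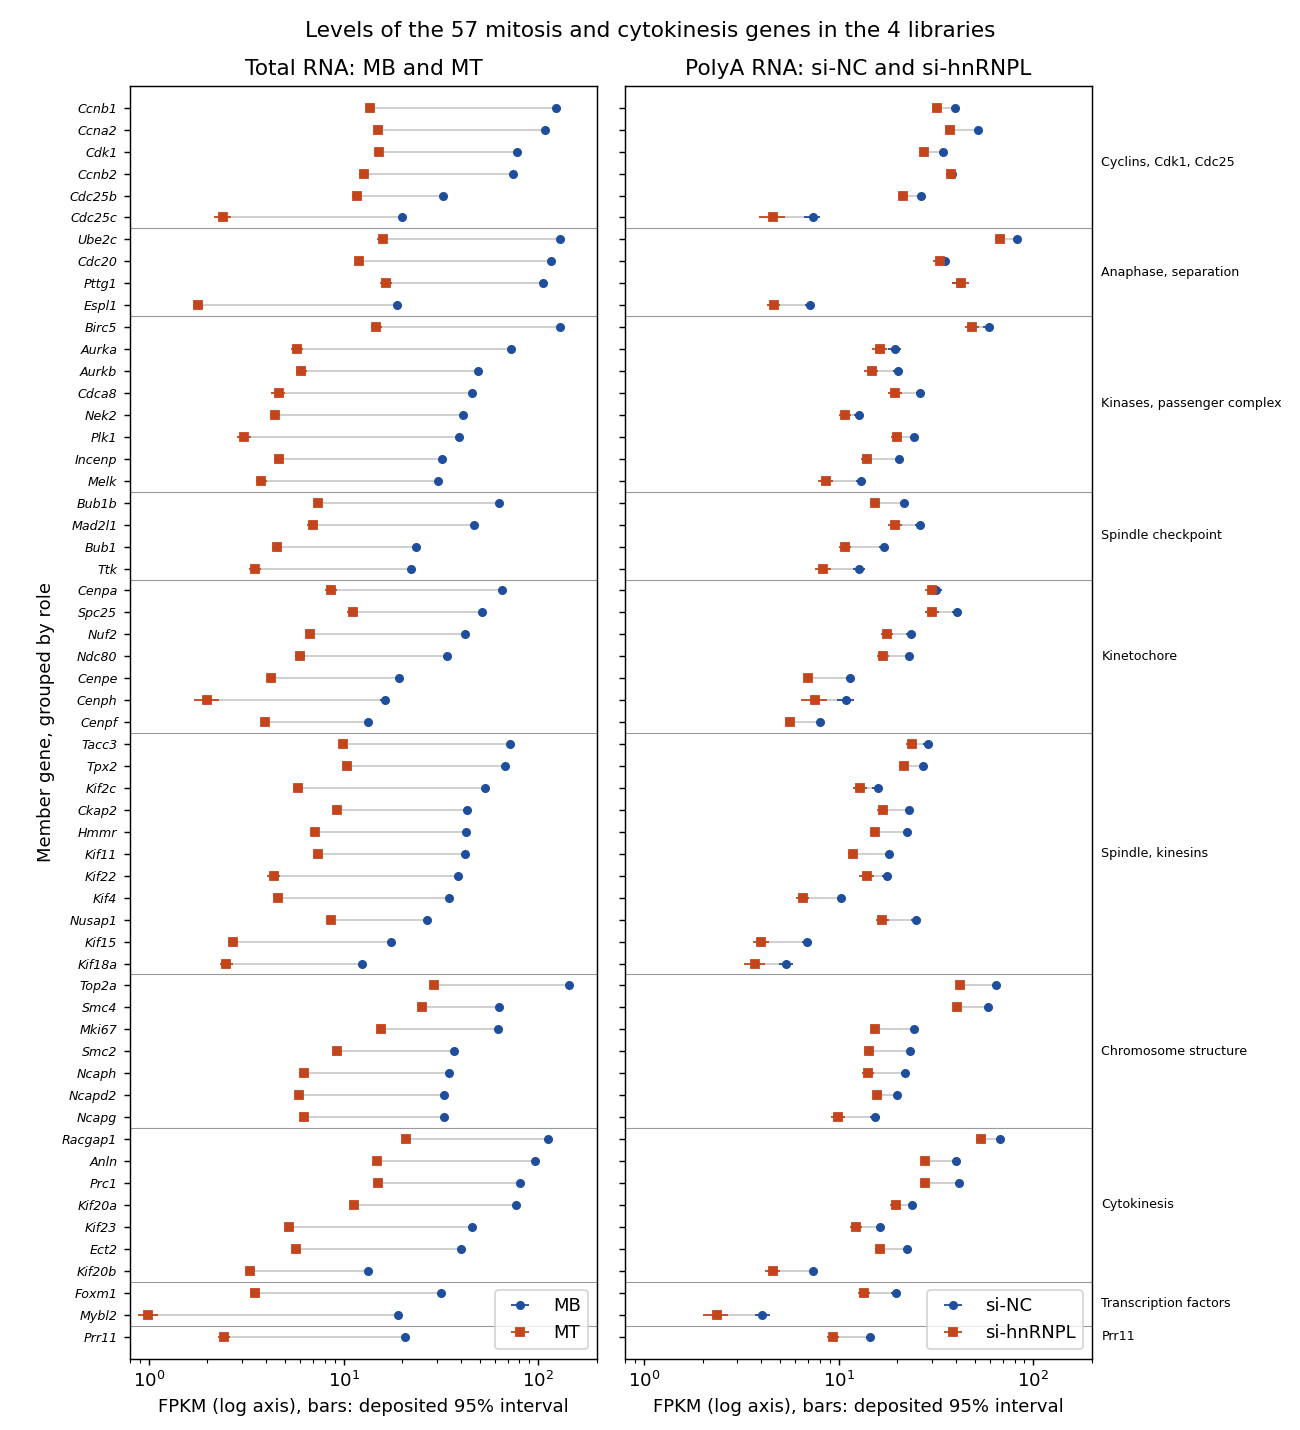
FPKM of the 57 members on a log axis in MB and MT total RNA (left) and in si-NC and si-hnRNPL polyA RNA (right), 1 library per condition, with bars for the deposited 95% interval where it is wider than the symbol and grey lines joining the values of a gene. In the left panel all genes lie lower in MT, while in the right panel the gaps are small and Pttg1 is the only gene with a higher value in si-hnRNPL.

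Among the cyclin, Cdk1 and Cdc25 genes, Ccnb1, which encodes cyclin B1, had 123 FPKM (95% interval 121 to 125) in MB and 13.7 (13.2 to 14.3) in MT, a log2 change of -3.08. Ccna2, the cyclin A gene of S phase and G2, went from 108 (107 to 110) to 15.0 (14.5 to 15.5). Cdk1, the kinase both cyclins activate, went from 77.9 to 15.2 and changed by -2.28, and Ccnb2, the other B-type cyclin, by -2.45, from 73.7 (72.1 to 75.3) to 12.7 (12.03 to 13.3). Thus the kinase fell less than cyclin B1. The phosphatases that activate Cdk1 differed widely from each other. Cdc25c had 19.96 FPKM (19.2 to 20.7) in MB and 2.40 (2.15 to 2.65) in MT, which is -2.62. Cdc25b had 32.3 (31.6 to 33.0) and 11.6 (11.1 to 12.2), which at -1.40 was the smallest log2 change of the group and left 36.1% of the MB level.

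The genes of anaphase onset had a median log2 change of -2.89. Ube2c, the ubiquitin-conjugating enzyme of the anaphase-promoting complex, had 129 FPKM (127 to 132) in MB and 15.9 (14.9 to 16.8) in MT. Cdc20, which brings substrates to that complex, had 116 (114 to 118) and 12.0 (11.4 to 12.6), a log2 change of -3.17. Espl1 encodes separase, the protease that cuts cohesin, and went from 18.8 (18.5 to 19.2) to 1.79 (1.68 to 1.91). Pttg1, or securin, which holds separase inactive, went from 105 (102 to 108) to 16.6 (15.4 to 17.8), at -2.60 the smallest of the 4. In mm9 Ube2c shares exon sequence with Tnnc2, a troponin C gene on the opposite strand that went from 0.499 to 211 FPKM. The use of strand in counting is not stated, so how much of the Ube2c value in MT is its own cannot be told from these values.

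The mitotic kinases and the chromosomal passenger complex had a median of -2.99, against -2.89 for the anaphase genes. After subtraction of length and GC bins these were -2.87 and -2.90, so their order turned. Aurka, the spindle pole kinase, on chromosome 2 from 172181690 to 172196035 of mm9, had 72.6 FPKM (71.0 to 74.2) in MB and 5.78 (5.35 to 6.22) in MT. Its log2 change of -3.44 was the most negative among the 57 and left 7.97% of the MB level. This rank depended on the added 1, since with 0.1 in its place Mybl2 was at -4.12 and Aurka at -3.63. Plk1, the Polo-like kinase, kept 7.91% (39.0 and 3.09 FPKM, -3.29). Among the passenger complex genes, Birc5, the survivin gene, had the highest level, with 130 (127 to 133) in MB and 14.7 (13.8 to 15.7) in MT. Cdca8, or borealin, changed by -3.04, Aurkb, the kinase of the complex, by -2.82 and Incenp, its scaffold, by -2.54, from 32.0 (31.3 to 32.7) to 4.67 (4.41 to 4.94). Nek2, a centrosome kinase, changed by -2.94, from 40.9 (40.1 to 41.7) to 4.46 (4.20 to 4.72). Melk, another kinase gene, changed by -2.72, from 30.6 (29.8 to 31.3) to 3.78 (3.53 to 4.03). The 8 genes thus ranged from -3.44 to -2.54.

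The spindle checkpoint genes halt anaphase until every kinetochore is attached. Bub1b had 62.5 FPKM (61.5 to 63.4) in MB and 7.40 (7.09 to 7.71) in MT, and Mad2l1 46.9 (45.7 to 48.1) and 6.97 (6.52 to 7.43). Bub1 went from 23.5 (22.8 to 24.1) to 4.57 (4.29 to 4.85), which at -2.14 was the smallest change of the 4, and the kinase gene Ttk changed by -2.35. The kinetochore genes had a median of -2.33 and spread more widely. Cenpa, the centromeric histone H3 variant, changed by -2.79, from 65.3 (63.7 to 66.9) to 8.59 (7.99 to 9.20). Cenpf, a large kinetochore protein of G2 and mitosis, changed by -1.55, from 13.4 (13.2 to 13.6) to 3.93 (3.81 to 4.06), and the kinesin Cenpe by -1.95, from 19.2 (18.9 to 19.6) to 4.23 (4.07 to 4.39). The subunits of the Ndc80 complex, which grips microtubules, stood close together, with Nuf2 at -2.47, Ndc80 at -2.33 and Spc25 at -2.12. Spc25 had the highest MB level of these 3, at 51.6 FPKM (50.04 to 53.1), and 11.1 (10.4 to 11.9) in MT.

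Spindle and kinesin genes changed by a median of -2.42. Kif2c, a kinesin that takes microtubules apart, had 53.0 FPKM (52.0 to 54.0) in MB and 5.84 (5.52 to 6.16) in MT, a log2 change of -2.98. Tacc3, a spindle stabilizer, went from 71.1 (69.9 to 72.3) to 9.89 (9.46 to 10.3). Kif11 and Kif15, kinesins that keep the spindle poles apart, were close to each other at -2.35 and -2.31. Kif11 went from 42.0 (41.3 to 42.6) to 7.42 (7.15 to 7.69) and Kif15 from 17.5 (17.1 to 17.9) to 2.71 (2.55 to 2.88). Kif4, a chromosome-bound kinesin, went from 34.6 (33.97 to 35.2) to 4.59 (4.38 to 4.81). Nusap1, a microtubule bundler, stood apart at -1.52, from 26.8 (26.0 to 27.5) to 8.65 (8.25 to 9.06), and its exons overlap those of Oip5, which itself changed by -1.82. Of the cytokinesis genes, Kif23, a subunit of centralspindlin, changed most, at -2.89, from 45.5 (44.7 to 46.4) to 5.27 (5.00 to 5.54). Its partner Racgap1 had the highest level of that group, at 112 (110 to 113) in MB and 21.0 (20.4 to 21.6) in MT, and changed by -2.36. Anln, Ect2 and Kif20a lay between -2.66 and -2.60, with Kif20a, a kinesin of the midzone, at 76.9 (76.1 to 77.7) and 11.3 (10.9 to 11.6). Kif20b was the least changed, at -1.72, with 13.3 (12.9 to 13.6) and 3.32 (3.15 to 3.49).

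The genes of chromosome structure had a median of -2.22, against -2.33 for the kinetochore genes, and after subtraction of length and GC bins both were at -2.37. Top2a, the topoisomerase that untangles sister chromatids, had the highest level of all members in both libraries, 143 FPKM (142 to 144) in MB and 29.2 (28.7 to 29.7) in MT. The condensin genes did not move as a block. The subunits found only in condensin I stood within a narrow range, with Ncapd2 at -2.31, from 33.0 FPKM (32.4 to 33.6) to 5.87 (5.62 to 6.12), Ncaph at -2.30 and Ncapg at -2.22, from 32.8 (32.2 to 33.5) to 6.26 (5.97 to 6.54). The SMC subunits that condensin I and II share fell less than these, with Smc2 at -1.89, from 37.1 (36.4 to 37.7) to 9.27 (8.98 to 9.55), and Smc4 at -1.28, from 62.5 (61.7 to 63.4) to 25.2 (24.6 to 25.7). After the subtraction of length and GC bins described below, Smc4 stood at -1.47 but Smc2 at -2.37, no longer apart from Ncapd2 at -2.37 and Ncaph at -2.18. Ncapg was then at -2.57, so the range of the subunits found only in condensin I was wider than as measured. Smc4 kept 40.2% of its MB level, the most of the 57. Mki67, the gene of the proliferation antigen Ki-67, changed by -1.93 and kept 25.1%.

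The 2 transcription factors that drive the mitotic genes fell with them. Foxm1 went from 31.8 FPKM (31.2 to 32.4) to 3.51 (3.31 to 3.70). Mybl2 went from 18.9 (18.4 to 19.4) to 0.995 (0.882 to 1.11), so that it kept 5.26% of its MB level, the lowest share among the members. Prr11, a gene of the cell cycle, went from 20.6 (20.04 to 21.1) to 2.44 (2.27 to 2.62). All members passed the threshold with a wide margin, and those nearest to it were Smc4 and Cdc25b.

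**Figure D3:**
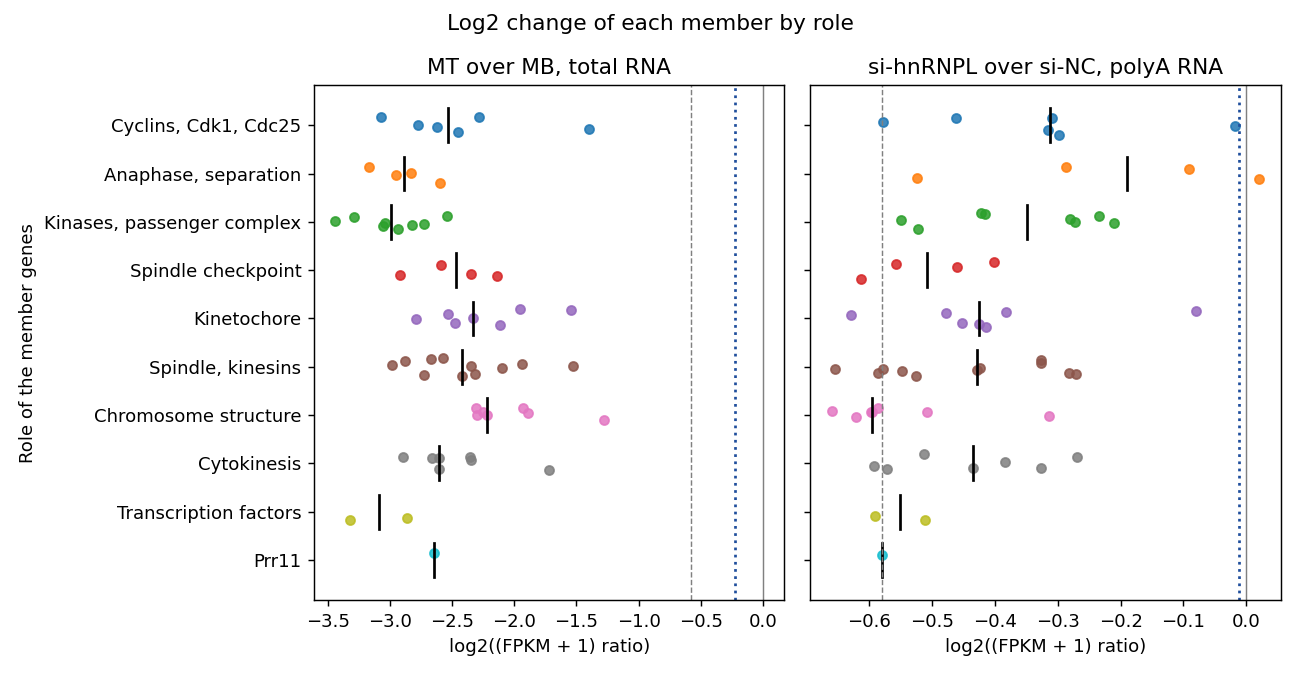
Log2((FPKM + 1) ratio) of each member by role for MT over MB (left) and si-hnRNPL over si-NC (right), with a point per gene, a black bar at the median of the role, a dashed line at -0.58, a solid line at 0 and a dotted line at the median of all genes that reached 1 FPKM in both libraries. The scales of the panels differ; all points of the left panel lie beyond -0.58, and in the right panel 11 do, 5 of them genes of chromosome structure.

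In the siRNA libraries the target itself was measured first. Hnrnpl mRNA stood at 95.1 FPKM in si-NC and at 85.9 in si-hnRNPL, a log2 change of -0.14, which is under the threshold. The mRNA values thus show little loss of the target in the library labelled si-hnRNPL, and the protein was not analysed here. The paper itself checked hnRNPL protein by Western blot in siRNA-treated cells after 48 h in DM, and it reports a knockdown. Most members were lower in si-hnRNPL, and by less than in MT. FPKM ranged from 4.06 to 82.8 (median 22.5) in si-NC and from 2.36 to 67.7 (median 15.8) in si-hnRNPL, and the median member was at 72.0% of its si-NC level. The log2((FPKM + 1) ratio) was below 0 for 56 of 57, with a median of -0.43 (quartiles -0.57 and -0.31), and that of all genes reaching 1 FPKM was -0.01. By 0.58 or more 11 of the 57 (19.3%) were lower and 0 higher, against 0.624% of 16499 named genes that were lower and 0.946% that were higher. Of the 11051 genes that reached 1 FPKM in both libraries 0.76% were lower. The FPKM intervals of 53 members did not overlap between the libraries. The same count was not made over all genes, so it does not set the members apart. Of the members 41 lay below the 5th percentile of all genes reaching 1 FPKM.

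The 11 genes past the threshold were Smc2, Kif15, Cenpe, Mki67, Bub1, Top2a, Ncaph, Kif20b, Mybl2, Kif11 and Ncapg. Just inside it stood Kif11 and Ncapg, both at -0.586, and just outside Prr11 at -0.5797 and Kif4 at -0.578. Kif11 had 18.2 FPKM (17.5 to 18.9) in the control library and 11.8 (11.1 to 12.5) in si-hnRNPL, and Ncapg 15.4 (14.5 to 16.4) and 9.94 (9.12 to 10.8). Prr11 had 14.5 (13.8 to 15.2) and 9.38 (8.70 to 10.1), and Kif4 10.3 (9.79 to 10.8) and 6.56 (6.06 to 7.07). The intervals of the libraries did not overlap for any of these 4, so the threshold parts genes with nearly the same change. As many members lie close to the threshold, the count depends on it more than the median does.

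Chromosome structure was the role with the most genes called, 5 of 7, and a median of -0.60. Smc2, on chromosome 4 from 52452115 to 52501237 of mm9, stood at 23.2 FPKM (22.2 to 24.2) in the control library and at 14.3 (13.5 to 15.1) in si-hnRNPL. Its log2 change of -0.66 was the most negative of the 57. With 0.1 added in place of 1 it was at -0.69, and Kif15 at -0.77 and Mybl2 at -0.76 were more negative. Smc4, with which it pairs, had 58.2 (56.9 to 59.6) and 40.7 (39.3 to 42.0), which is -0.51 and was not called. Top2a fell from 64.3 (63.1 to 65.6) to 42.2 (41.0 to 43.4), Mki67 from 24.3 to 15.5 and Ncaph from 21.8 to 14.1. Ncapd2, the remaining condensin I gene, had 19.9 (19.2 to 20.6) and 15.8 (15.0 to 16.6), a log2 change of -0.31. The condensin subunits were thus uneven here too, in another order than between MB and MT.

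Among the spindle and kinesin genes, with a median of -0.43, Kif15 fell from 6.88 FPKM (6.47 to 7.30) to 4.01 (3.62 to 4.40), which is -0.65. Tacc3 was at 28.8 (27.2 to 30.5) and 23.7 (22.1 to 25.3), Kif2c at 15.9 (14.8 to 17.0) and 12.9 (11.8 to 14.0), and Nusap1 at 25.02 (23.6 to 26.4) and 16.8 (15.5 to 18.0). Of the kinetochore genes 1 passed, the kinesin Cenpe, from 11.4 (10.97 to 11.8) to 7.003 (6.60 to 7.40). Cenpa stood at 31.8 (29.7 to 33.8) and 30.004 (27.7 to 32.3), with overlapping intervals, Spc25 at 40.6 (38.01 to 43.2) and 30.2 (27.7 to 32.7), and Cenpf at 8.05 (7.77 to 8.34) and 5.61 (5.32 to 5.91). The checkpoint kinase gene Bub1 fell from 17.0 (16.1 to 17.9) to 10.8 (10.0 to 11.5), while Mad2l1, at 26.1 (24.7 to 27.5) and 19.5 (18.0 to 21.1), and Bub1b, at 21.6 (20.8 to 22.4) and 15.4 (14.5 to 16.3), were not called.

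The kinase and anaphase genes, whose medians in MT over MB were -2.99 and -2.89, held no gene past the threshold here, and neither did the cyclin group. Their medians were -0.35, -0.19 and -0.31. This absence depended on the added 1. With 0.1 added in its place, Melk (-0.597), Espl1 (-0.606) and Cdc25c (-0.666), from each of these groups, passed the threshold. Aurka had 19.4 FPKM (18.0 to 20.8) in the control library and 16.3 (14.9 to 17.8) in si-hnRNPL, a log2 change of -0.23. Nek2, at 12.7 (12.0 to 13.4) and 10.8 (10.0 to 11.6), was the least changed of the kinases, and Melk, at 13.1 (12.3 to 13.8) and 8.61 (7.85 to 9.36), had the most negative value of them, -0.55. Incenp, at 20.5 (19.6 to 21.4) and 13.95 (13.05 to 14.9), was at -0.52. Birc5, at 59.0 (55.2 to 62.8) and 48.7 (44.7 to 52.6), was at -0.27 and Plk1 at -0.28. Of the genes around the anaphase-promoting complex, Cdc20 had 35.2 (33.1 to 37.4) and 33.0 (30.6 to 35.4), and Pttg1 had 41.8 (38.2 to 45.3) and 42.4 (38.0 to 46.7), the only value that was not lower. Espl1 was at -0.52, from 7.10 (6.75 to 7.45) to 4.63 (4.28 to 4.99). The cyclin B genes differed from one another, since Ccnb1 had 39.8 (38.3 to 41.2) and 31.9 (30.3 to 33.5), while Ccnb2, at 38.2 (36.4 to 40.0) and 37.7 (35.5 to 40.0), was at 98.8% of its si-NC level. Pttg1, Ccnb2, Cenpa and Cdc20 were the 4 members whose intervals overlapped. Ccna2, at 51.9 (49.4 to 54.5) and 37.4 (35.3 to 39.5), was at -0.46 and Cdk1 at -0.32. Cdc25b, at 26.6 (25.3 to 27.9) and 21.4 (20.1 to 22.8), was at -0.30, and Cdc25c, at 7.37 (6.66 to 8.07) and 4.61 (3.91 to 5.30), at -0.58.

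For Ube2c, at 82.8 FPKM (79.0 to 86.5) and 67.7 (63.4 to 71.9), the overlapping Tnnc2 was higher in si-hnRNPL (265 and 408 FPKM), and no strand setting is stated for the polyA libraries. In cytokinesis Kif20b fell from 7.42 (7.03 to 7.82) to 4.59 (4.20 to 4.98), Prc1 was at -0.57 and Anln at -0.51. Racgap1 had 67.5 (64.7 to 70.3) and 53.6 (51.03 to 56.2), Kif23 16.3 (15.6 to 17.1) and 12.3 (11.5 to 13.1), and Kif20a, the least changed at -0.27, 23.9 (22.6 to 25.2) and 19.7 (18.4 to 20.98). The transcription factor Mybl2 fell from 4.06 (3.70 to 4.43) to 2.36 (2.01 to 2.71), and Foxm1 was at 19.8 (18.7 to 20.9) and 13.6 (12.6 to 14.5), a log2 change of -0.51. Exon overlaps with other protein-coding genes were found for 10 members in all, and of the overlapping genes with a value in the siRNA libraries only Tnnc2 moved by 0.58 or more there.

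Transcript length and GC content moved with these differences. Over the members, the log2 change in si-hnRNPL had a Spearman rho of -0.59 with the length of the longest coding transcript and of 0.46 with its GC content, and over 9842 genes reaching 1 FPKM the values were -0.45 and 0.43. Smc2, with the most negative log2((FPKM + 1) ratio), has a transcript of 5483 bases and 39.3% GC. Ccnb2 and Pttg1, at the other end, have 1541 and 1674 bases. The order was loose, since the longest member, Cenpf (11137 bases), stood at -0.45 and the most AT-rich, Kif18a (38.3% GC), at -0.43, both near the median. Mybl2, with 56.3% GC, stood at -0.59. When the median change in 20 bins of each property was subtracted, the members' median went from -0.43 to -0.40 and all 57 were below 0, but only Mybl2 (-0.63) and Cdc25c (-0.61) lay past 0.58. Of all 9842 genes, 52 were lower by 0.58 or more after the subtraction. The chromosome structure genes then had a median of -0.46 with 0 of 7 called, and the kinase genes a median of -0.44. So the shift of the members as a whole kept its size, and the order of the roles and the list of called genes did not. For MT over MB the same correlations over the members were 0.37 with length and -0.63 with GC content (0.17 and -0.13 over 9751 genes), and the median after subtraction was -2.56 with 56 of 56 called. Of all 9751 genes, 2748 were lower by 0.58 or more after it.

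**Figure D4:**
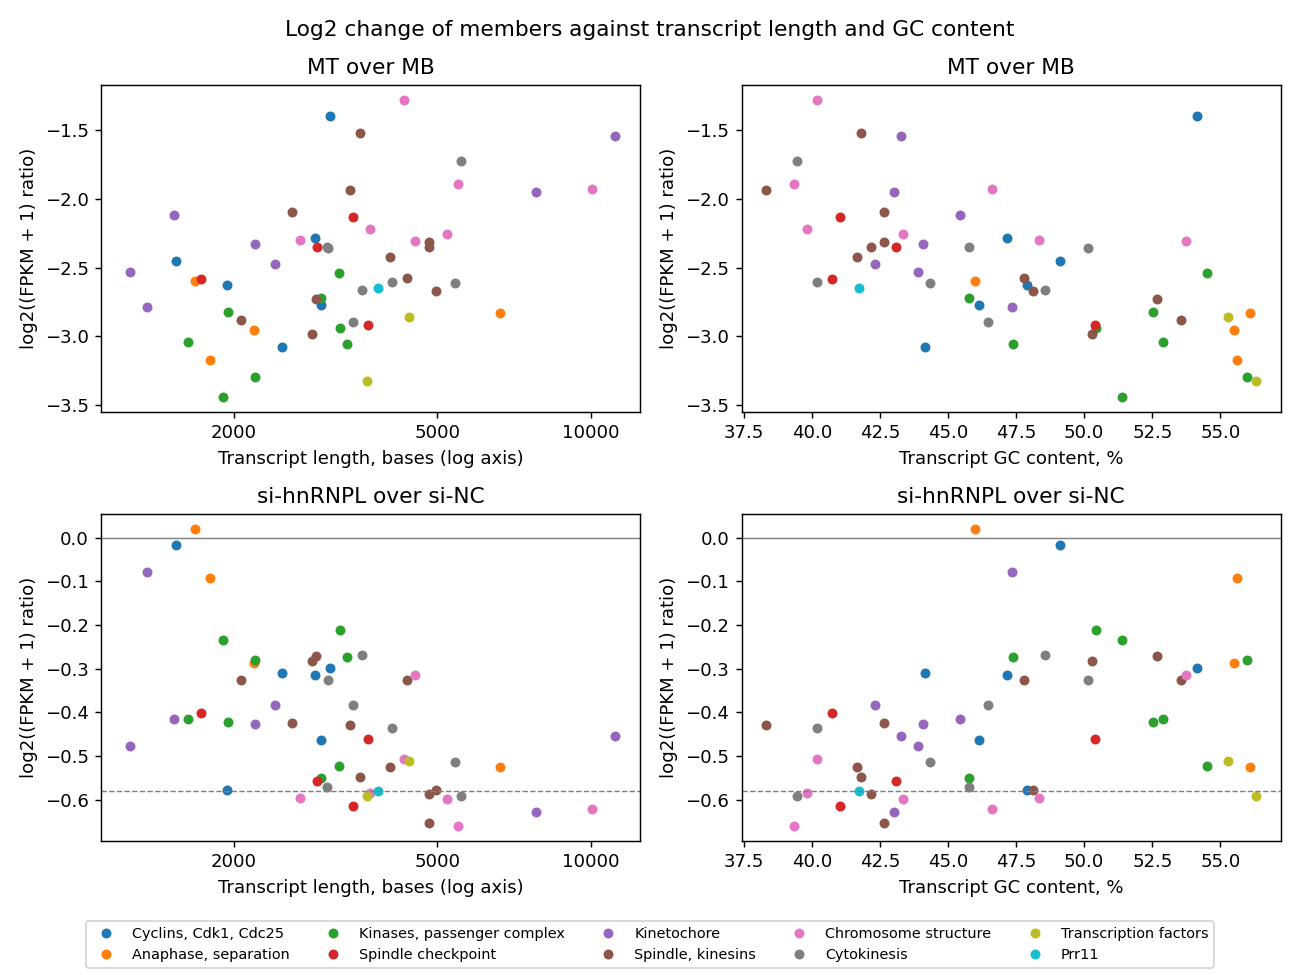
Log2((FPKM + 1) ratio) of each member against the length in bases (log axis) and GC content of its longest coding transcript, for MT over MB (top) and si-hnRNPL over si-NC (bottom), coloured by role, with a solid line at 0 and a dashed line at -0.58 in the lower panels. The slopes are opposite in the upper and lower panels, with rho over the members of 0.37 and -0.59 for length and of -0.63 and 0.46 for GC content.

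Set side by side, the changes of the members in the 2 comparisons, which share no library, ran in opposite order, with a Spearman rho of -0.47 and a Pearson r of -0.38 over the 57. Of the 4 members with the most negative log2((FPKM + 1) ratio) in MT, Aurka, Plk1 and Cdc20 stood at -0.23, -0.28 and -0.09 in si-hnRNPL. Mybl2 was called there at -0.59. Smc2, Kif20b, Cenpe and Mki67, at -1.95 to -1.72 in MT, were among the genes called in si-hnRNPL. Kif18a, at -1.94 in MT, lay in the same range and was not called, at -0.43. The 4 members that fell least in MT were Smc4, Cdc25b, Nusap1 and Cenpf, at -1.55 to -1.28. None of these was called in si-hnRNPL, where they stood at -0.51, -0.30, -0.55 and -0.45. After the subtraction of length and GC content the rho was -0.08 over 56 members, so the inverse order was not seen once both properties were taken out. The levels themselves were ordered alike, with a rho of 0.85 between MB and MT and 0.98 between si-NC and si-hnRNPL. These are correlations across genes of 1 library each, and genes are not independent replicates. Where levels in total RNA and polyA RNA are listed side by side, no comparison between them is drawn, as the libraries differ in preparation and in time in DM.

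**Figure D5:**
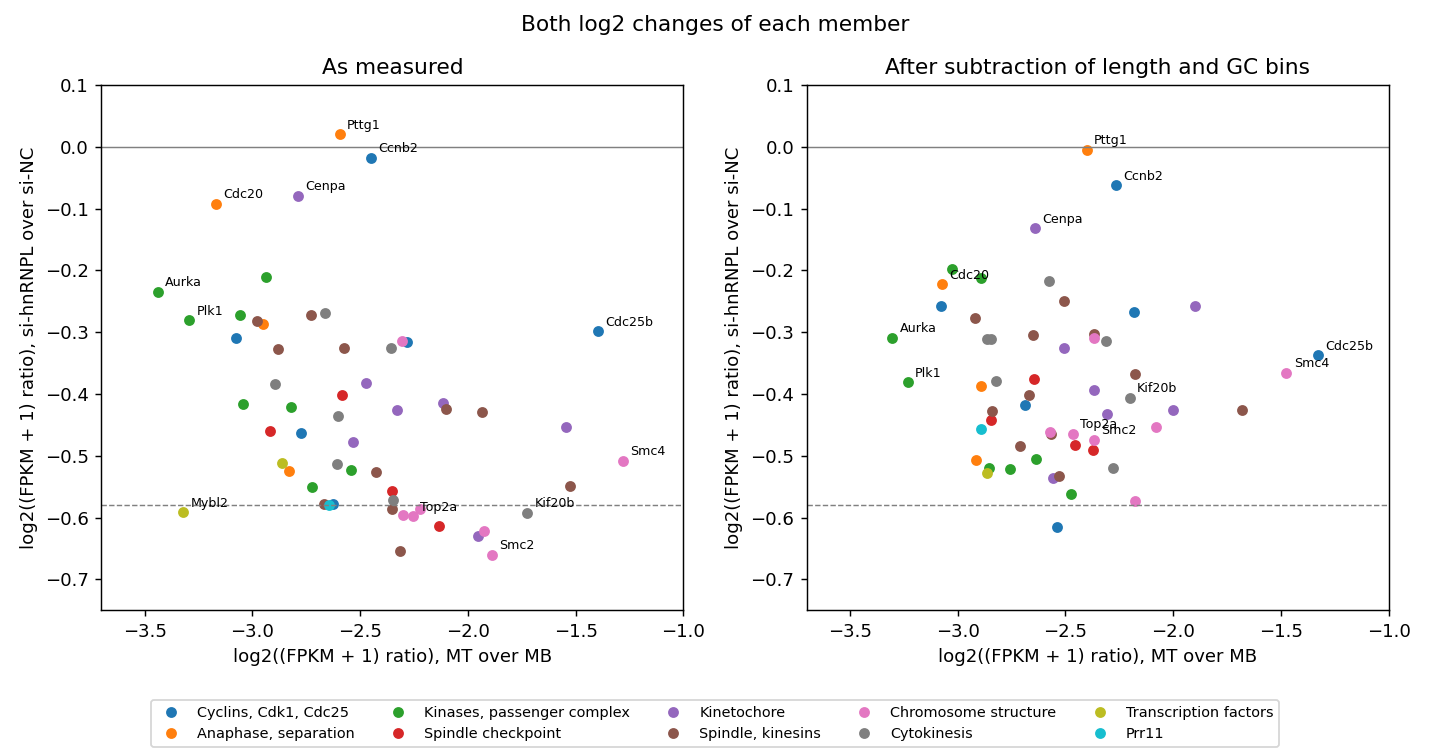
The log2((FPKM + 1) ratio) of each member in MT over MB (horizontal axis) and si-hnRNPL over si-NC (vertical axis), as measured (left, 57 genes) and after subtraction of the median changes by length and GC content (right, 56 genes, without Mybl2), coloured by role, with lines at 0 and -0.58. On the left the points run from upper left to lower right (rho -0.47), and on the right they do not (rho -0.08).

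The changes of members with and without these promoter letters lay close together. Members with a CHR had a median log2 change of -2.42 in MT over MB and those without one -2.56, and in si-hnRNPL over si-NC the medians were -0.43 and -0.42 (33 and 16 promoters). The promoters without a CHR include those of Ccnb1, Birc5 and Cenpe, which hold the variant TTTAAA. With and without an NF-Y box the medians were -2.44 and -2.59 in MT over MB and -0.43 and -0.43 in si-hnRNPL over si-NC (34 and 15 promoters). The stretches printed above were picked partly by their changes, so they cannot decide this. Among them Aurka and Top2a both hold CHR and NF-Y letters and changed by -3.44 and -2.26 in MT. Mybl2, with none of the letters searched, changed by -3.32.

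Other genes of the cell cycle lay close to the members. Of 63 further mitosis genes all 63 were lower in MT, with a median of -2.02, from Gtse1 at -3.30 to Ckap5 at -0.67. Of 42 DNA replication genes all 42 were lower, with a median of -2.24, from the helicase subunit Mcm5 at -3.21 to E2f1 at -1.005. In si-hnRNPL 8 of the 63 were lower, with a median of -0.38 and Ncapg2, a condensin II subunit, as the most negative at -0.72, and Bub3 as the most positive at 0.07. Of the 42, 12 were lower, with a median of -0.42 and values from the chromatin remodeler Hells at -0.84 to the GINS subunit gene Gins4 at -0.08. The mitosis members thus had neighbouring medians in both comparisons, and whether they differ from these lists was not tested. Of 17 genes that act in leaving the cell cycle, 8 were higher and 5 lower in MT, from Cdkn2d at -1.63 to Cdkn1a at 1.91, and 0 passed the threshold in si-hnRNPL, with values from Lin54 at -0.40 to Gas1 at 0.33. Among them Cdkn1a, the p21 gene, had 35.3 FPKM in MB, 135 in MT, 355 in si-NC and 447 in si-hnRNPL, at 0.33 on the log2 scale in the last pair. Ccnd1, the cyclin D1 gene of G1, fell with the members in both comparisons, from 113 to 18.8 FPKM and from 31.9 to 20.4, the most negative of 10 myoblast genes in each. The most positive of these 10 were Cdh15 at 1.24 in MT and Id3 at 0.90 in si-hnRNPL.

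The muscle genes moved the other way in MT. Of 21 differentiation genes 21 were higher in MT, with a median of 6.53 and, among those at 1 FPKM or more in both libraries, from the actin gene Acta1 at 5.19 to the myosin light chain gene Mylpf at 7.15. In the siRNA pair 6 of 21 were higher in si-hnRNPL, with a median of 0.48, among them Ckm at 0.71. Myog, the myogenic factor of early differentiation, had 0.695 FPKM in MB and 251 in MT, and 175 in si-NC and 249 in si-hnRNPL, which at 0.51 is under the threshold. Not all muscle genes shared this, since the titin gene Ttn was at -0.16 in si-hnRNPL, and after subtraction of the length and GC bins the muscle median there was 0.34. The part that the extent of differentiation, the depth of the libraries or the siRNA has in the values of the mitosis and muscle genes was not tested.

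The total RNA tables also list transcript units assembled without a gene name, and 13 of these overlapped the loci of 8 members, 12 of them lying inside. All 13 were lower in MT, with log2 changes from -1.80 for a unit in Cenpa to -0.37 for one in Bub1b, and 6 passed the threshold, against 3.09% of 36780 units in the tables. No FPKM minimum was set for the 36780 units, and with the added 1 a unit of low FPKM in MB cannot fall past -0.58. The shares are thus not matched for level. Of the 13 units 5 lay in Incenp, with 1.69 to 2.73 FPKM in MB and 0.716 to 1.14 in MT. Each unit changed less on this scale than the gene around it, at levels of 0.466 to 7.34 FPKM in MB where the added 1 shrinks a log2 change.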

How the data were processed

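C2C12 RNA was sequenced in 4 libraries, as rRNA-depleted total RNA (MB, MT) and as polyA RNA (si-NC, si-hnRNPL). Reads were trimmed by the authors and aligned to mm9 using TopHat. The deposited values are FPKM with 95% bounds, as Cufflinks gave them, for 61630 entries of total RNA and 24992 of polyA RNA. The annotation and the use of strand in counting are not given in the sources used here. The study called a gene changed by fold change alone.

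Values of entries sharing a symbol were summed. The change was log2((FPKM + 1) ratio), called at 0.58, and its interval came from both half-widths in quadrature. The fragments behind a value, which set its precision, were estimated as the squared ratio of FPKM to its standard error. Summed over entries, MB had 59960176 and MT 54442423 such fragments, while si-NC had 21341051 and si-hnRNPL had 14592480. Length and GC content came from the longest coding transcript in the GENCODE annotation of mm9, and the medians of 20 bins of each were subtracted in turn over 3 rounds. Exon overlaps came from the same annotation. The scripts were tested on simulated data. The software was Python 3.11.15 with pandas 2.3.3 and numpy 2.4.6; figures used matplotlib 3.10.9 and rank correlations scipy 1.17.1.

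The members and gene lists were chosen with earlier results of these data known. All members may be named. Levels with intervals were given for the members with the highest mean level and the most negative and most positive changes of each role, and for those next to 0.58. Hnrnpl, Myog, Ccnd1, Cdkn1a and the extreme genes of each pathway list with an FPKM of at least 1 were named as well, and Tnnc2, Oip5 and the other markers after their values were seen. Alternatives were other pseudocounts, an FPKM minimum, a higher threshold, centring on the median, the highest entry per symbol, an interval that leaves out 0, and the length and GC bins.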

Additional observations from a re-analysis of the deposited data

How the results depend on the processing

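With 1 library per condition the limit is the absence of replicates, and the intervals cover counting error only. The 95% interval of a member's log2 change reached at most 0.15 to either side in MT over MB and 0.22 in si-hnRNPL over si-NC. In MT over MB all 57 members were lower under each alternative that kept them, and 56 of 56 where 1 FPKM was asked of both libraries or length and GC bins were subtracted. The median of -2.58 moved to -2.68 with a pseudocount of 0.1, to -2.69 with 0.01 and to -2.35 after centring on the median of genes that reached 1 FPKM. In si-hnRNPL over si-NC the direction held, with 56 or 57 members below 0 under each scaling alternative, and the count past the threshold did not. Of 57 members 11 were lower, but 18 with a pseudocount of 0.1, 18 with 0.01, 2 after the length and GC bins were subtracted and 0 at a threshold of 1. Centring on the median gave 8. The count stayed at 11 with the FPKM minimum, with the highest entry per symbol and when the log2 interval had to leave out 0. Pttg1 stood at 0.02 as measured and at -0.0047 after the length and GC bins were subtracted, both within its interval. The cause of these differences was not tested.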
